A study of Mus musculus with 24 samples.

Results

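The comparison described here is that of set 4 with set 2 in livers of C57BL/6 mice that overexpressed L2d13, and it was made gene by gene on the log2 of FPKM + 1. FPKM is the number of sequenced fragments scaled to the length of the transcript and to the number of mapped fragments in the library. Its members are 12 of the 24 liver RNA libraries of the study, 6 with the digit 4 and 6 with the digit 2 in their sample names. The other 12 libraries came from wild-type (WT) C57BL/6 mice and also formed 2 sets of 6. L2d13 stands for what the labels call L2 delta13, a name used for a shortened Loxl2, the gene of lysyl oxidase-like 2 that here lacks an exon through splicing. The labels give no meaning for the digit, no age, no sex and no promoter for the overexpressed gene. The running numbers in the sample names of the L2d13 sets did not overlap and were all lower in set 4, so the sets and whatever these numbers follow cannot be told apart. Whether each library is a separate animal is not stated in the labels. The p-values below therefore measure only how far these samples spread, and some of that spread may be technical.

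Hepatocyte genes were the most abundant in all 12 libraries, and 10 of 10 hepatocyte markers were detected. Their summed level was 30779 to 58817 FPKM in set 2 and 47374 to 57923 in set 4. Set 2 replicate 3 stood apart. Its correlations with the other 11 L2d13 libraries were 0.918 to 0.947, against 0.986 to 0.992 among the rest of set 2 and 0.978 to 0.991 within set 4. It held 11371 genes at an FPKM of 1 or more and 11019 FPKM of albumin (Alb), and its summed hepatocyte markers were the lowest of set 2. The summed markers of every other cell type list except exocrine pancreas were the highest of set 2 in this library. Among these were erythroid cells (3566 FPKM), cholangiocytes (142) and adipocytes (64.8). Set 2 replicate 1 had 150.1 FPKM of summed exocrine pancreas markers, against 3.61 to 5.83 in the rest of set 2. The counts and calls below that rest on replicate 3 are also given without it.

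As background, the circadian clock of the liver is a loop in which the activators ARNTL and CLOCK or NPAS2 drive Period, Cryptochrome and Nr1d genes, whose proteins then repress the loop, so that target mRNAs rise and fall over the day. The endoplasmic reticulum (ER) folds the large output of secreted liver proteins, and when folding demand rises, sensors in its membrane switch on genes of chaperones and of the removal of misfolded proteins. Major urinary proteins (Mup) are pheromone carriers that the mouse liver secretes in large amounts under the pulses of growth hormone typical of males, and several cytochrome P450 genes follow the same hormone in the opposite sense.

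Among 10532 genes tested with limma, 638 differed between the L2d13 sets at a Benjamini-Hochberg adjusted p under 0.05, and these are the genes called below. In set 4, 580 of them were lower (5.51% of the genes tested) and 58 were higher (0.551%). The median log2 difference over all tested genes was -0.15 (-0.10 without set 2 replicate 3), and 337 called genes changed by at least 1.5-fold in FPKM + 1. All 6 libraries of set 4 lay below all 6 of set 2 for 523 tested genes (4.97%) and above them for 39 (0.370%). The 50 most abundant genes held 36.2% to 41.7% of the FPKM sum in set 2 and 42.1% to 49.4% in set 4, without overlap. The adjusted p was 0.0152 (exact permutation test, two-sided, over 21 library measures). Genes at an FPKM of 1 or more numbered 10096 to 11371 in set 2 and 9766 to 10108 in set 4 (same test, adjusted p = 0.0182). The excess of lower genes moved with the scaling of the libraries. With median-of-ratios scaling, which brings the median difference to 0.00, 196 genes were lower (1.86%) and 105 higher (0.997%), and 250 of the 638 genes were called again. Quantile normalization gave 209 lower (1.98%) and 136 higher (1.29%). Scaling to an equal FPKM sum without the 50 most abundant genes gave 179 lower (1.70%) and 85 higher (0.807%). The share of higher genes among those called was 9.09% as deposited and 34.9%, 39.4% and 32.2% under these scalings. Without set 2 replicate 3, 287 genes were lower (2.74%) and 38 higher (0.363%), and 307 of the 638 were called again. The count of lower genes was also 324 without set 2 replicate 1, and 263, 336, 276 and 336 without set 4 replicates 7, 8, 10 and 12. The count of higher genes was 32, 36 and 38 without set 2 replicates 1, 2 and 3, and 31, 37, 33 and 33 without set 4 replicates 7, 8, 10 and 12.

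Of the 22 tested genes of the circadian clock, 4 were higher and 5 lower in set 4. Over all tested genes 0.551% were higher and 5.51% lower, and the counts of this and later lists stand beside these shares. Both Nr1d genes, whose nuclear receptors repress Arntl and its targets, were higher, as were the output factors Dbp and Tef. Among the lower genes were the activators Arntl and Npas2, the repressor Cry1 and the Dbp antagonist Nfil3. The median difference of the list was -0.17, near that of all tested genes. The counts were 4 higher and 4 lower with each of the 3 other scalings, and 4 higher and 5 lower without set 2 replicate 3.

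Nr1d1, which encodes the receptor REV-ERBα, was at 3.2 to 7.43 FPKM, median 5.61, in set 2 and 16.1 to 42.8, median 28.2, in set 4. The sets did not overlap, and the log2 difference was 2.12 ± 0.36 (SE), with an adjusted p of 0.00177. This is an increase of 4.36-fold in FPKM + 1. Values in parentheses below are log2 differences on this scale, set 4 minus set 2 unless stated otherwise, with ± for the SE. Nr1d2, which encodes the related REV-ERBβ, was at 3.12 to 5.31 FPKM, median 3.58, in set 2 and 6.92 to 12.3, median 9.1, in set 4, again without overlap (1.06 ± 0.19, adjusted p = 0.00252). Dbp, an activator of output genes, was at 0.88 to 1.49 FPKM, median 0.98, in set 2 and 2.44 to 39.6, median 7.72, in set 4 (2.37 ± 0.44, adjusted p = 0.00348). Set 2 was narrow for Dbp, while set 4 reached 39.6 and 21.2 FPKM in replicates 7 and 8 and lay between 2.44 and 9.29 in its other 4 libraries. Replicates 7 and 8 were also the highest in set 4 for Nr1d1 (42.8 and 38.8 FPKM) and the lowest for Nfil3 (9.16 and 10.2) and Cry1 (2.95 and 2.89). Tef, of the same family as Dbp, was at 8.04 to 23.6 FPKM, median 9.98, and 13.5 to 28.9, median 21.1, with overlap (0.85, adjusted p = 0.0351), and its call was lost on removal of set 2 replicates 1, 2, 4, 5 or 6 or of set 4 replicates 7, 8, 11 or 12 (adjusted p up to 0.0897).

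Lower clock genes included members of the activating limb and of its repression. Nfil3 was at 35.1 to 61.3 FPKM, median 35.8, in set 2 and 9.16 to 22, median 18.6, in set 4 (-1.28 ± 0.24, adjusted p = 0.0038), and Cry1 at 6.36 to 8.64, median 7.64, and 2.89 to 5.71, median 3.53 (-0.84 ± 0.14, adjusted p = 0.00175). Neither gene overlapped between the sets. Arntl, which encodes the activator BMAL1, was at 9.09 to 10.1 FPKM, median 9.56, in set 2 and 2.78 to 8.05, median 6.51, in set 4 (-0.72, adjusted p = 0.0119), and its adjusted p was 0.0581 with median-of-ratios scaling. Npas2, which can stand in for CLOCK, was at 1.5 to 2.56, median 2.43, and 0.36 to 1.85, median 0.735 (-0.79, adjusted p = 0.00677). The other 13 tested clock genes did not pass the threshold. Among them were Clock (-0.17, adjusted p = 0.43), Per1 (0.42, adjusted p = 0.448), Per2 (-0.34, adjusted p = 0.451) and Ciart (0.77, adjusted p = 0.127). The plot of single genes by library shows how the L2d13 sets separate for 8 genes while the WT sets mostly overlap.

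**Figure D1:**
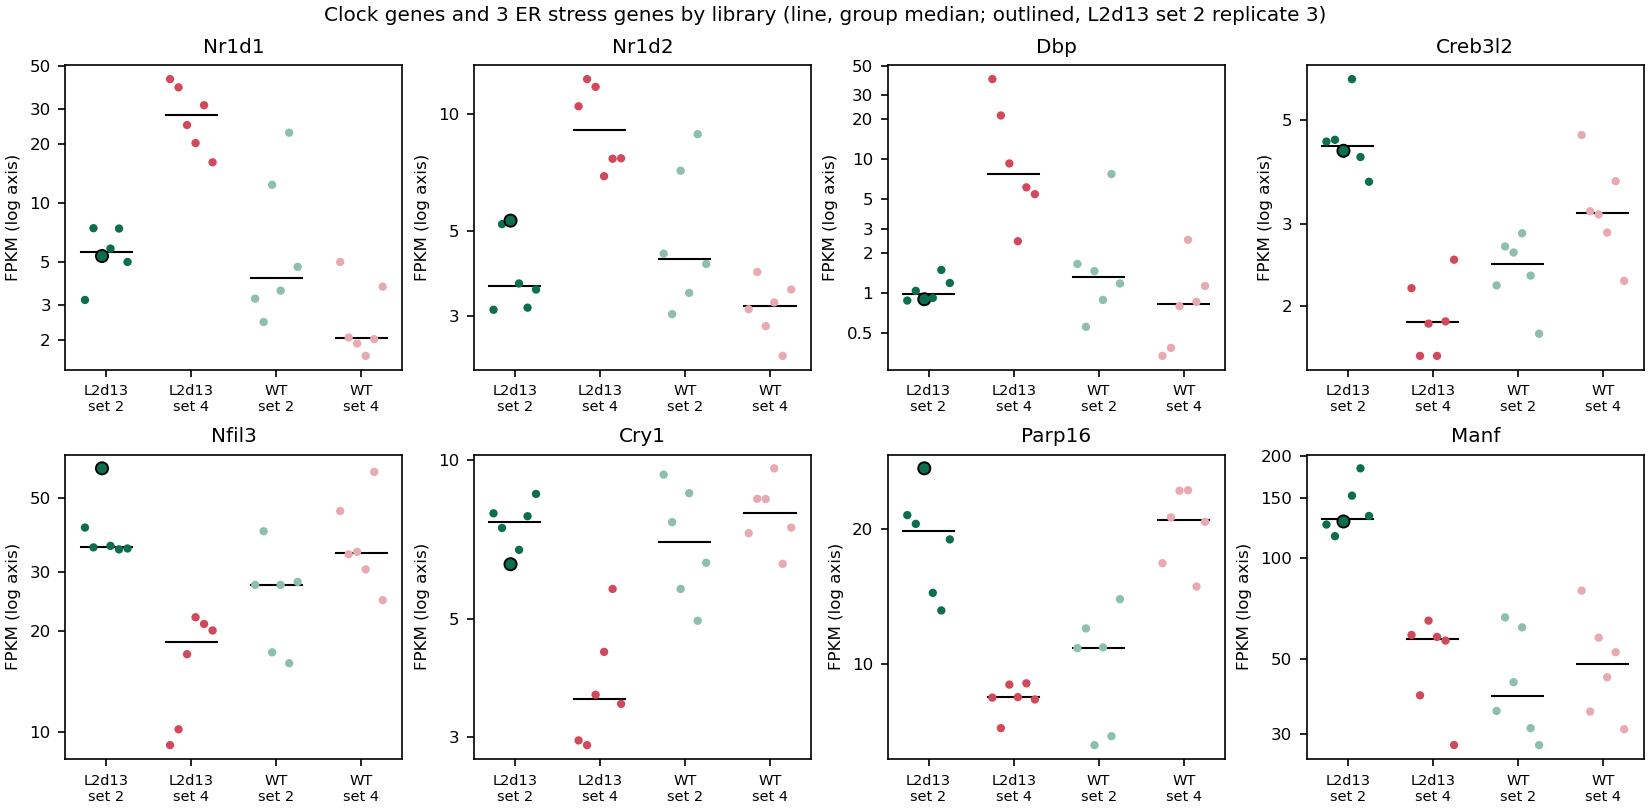
FPKM on a log axis of 5 clock genes, Creb3l2, Parp16 and Manf in each of 24 libraries. Points are libraries, lines are group medians and the outlined point is L2d13 set 2 replicate 3. In L2d13 the points of set 4 lie above those of set 2 for Nr1d1, Nr1d2 and Dbp and below them for Creb3l2, Nfil3, Cry1, Parp16 and Manf.

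Promoters of clock genes were searched for the motifs through which the loop acts, because members moved together in opposite directions. The sequences are those of RefSeq on GRCm38.p6, from 250 bases before to 50 bases after the gene start, and 17 of the 22 tested clock genes were matched. The E-box CACGTG, bound by the activators, was in promoters of 4 of the 17 genes (Ciart, Cry1, Per1 and Tef) and in 7.15% of all 32851 promoters. Of these 4 genes only Cry1 was lower (-0.84). Tef was higher (0.85), and the estimates of Ciart (0.77) and Per1 (0.42) were positive but not called. The REV-ERB element core TAGGTCA was in promoters of Arntl and Nfil3 and in 2.61% of all promoters. The D-box TTATGTAA, bound by DBP and NFIL3, was in none of the 17 and in 0.938% of all. Both strands were searched, and no 2 of these matches overlapped. A match describes the letters of the window and not a bound site. The promoters of Cry1 (chr10:85185005-85185304, minus strand) and Nfil3 (chr13:52980990-52981289, minus strand) are shown because both genes were lower in set 4, with the E-box of Cry1 at -60 and the minus strand REV-ERB core of Nfil3 at -12 from the gene start in capitals.
Cry1: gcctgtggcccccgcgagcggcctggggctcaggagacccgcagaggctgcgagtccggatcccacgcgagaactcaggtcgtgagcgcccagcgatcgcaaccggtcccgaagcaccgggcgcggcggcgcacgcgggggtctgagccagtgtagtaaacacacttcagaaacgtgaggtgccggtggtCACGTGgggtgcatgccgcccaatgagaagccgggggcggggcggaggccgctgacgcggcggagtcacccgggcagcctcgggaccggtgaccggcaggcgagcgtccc
Nfil3: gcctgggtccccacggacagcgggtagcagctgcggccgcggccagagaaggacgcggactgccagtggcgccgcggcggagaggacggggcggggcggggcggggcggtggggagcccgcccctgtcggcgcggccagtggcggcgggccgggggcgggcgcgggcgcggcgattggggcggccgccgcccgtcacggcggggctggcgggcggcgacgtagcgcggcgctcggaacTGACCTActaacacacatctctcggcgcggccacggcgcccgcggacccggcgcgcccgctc

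Many genes of protein folding in the ER were lower in set 4. Of 29 tested members, 18 were lower in set 4 and none was higher, with a median log2 difference of -0.68 against -0.15 over all tested genes, and 29 of 29 estimates were negative. By role, 9 of 15 chaperones and their helpers, 6 of 8 genes of ER-associated degradation and 3 of 6 sensors and regulators were lower. The count of lower members was 11 with median-of-ratios scaling, 13 with quantile normalization and 17 without set 2 replicate 3, and removal of any single L2d13 library left 15 to 18.

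The ER stress element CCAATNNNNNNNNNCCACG, at which ATF6 acts together with NF-Y, was searched on both strands of the same RefSeq promoters. Of the 29 tested members, 25 were in the promoter table and 9 held a match, against 0.119% of all 32851 promoters. The 9 were Calr, Canx, Creld2, Derl3, Dnajc3, Hsp90b1, Hspa5, Pdia6 and Syvn1. Calr, Canx, Dnajc3 and Pdia6 held a match without being called between the sets. Among the 16 lower members in the table, 5 held a match, so genes with and without this motif in the window were lower. The windows of these 5 genes are shown with the element in capitals, where a capital run that starts with CGTGG is the element read from the other strand. They are Hspa5 (chr2:34771840-34772139, plus strand), Creld2 (chr15:88819396-88819695, plus strand), Derl3 (chr10:75893148-75893447, plus strand), Syvn1 (chr19:6046326-6046625, plus strand) and Hsp90b1 (chr10:86705395-86705694, minus strand).
Hspa5: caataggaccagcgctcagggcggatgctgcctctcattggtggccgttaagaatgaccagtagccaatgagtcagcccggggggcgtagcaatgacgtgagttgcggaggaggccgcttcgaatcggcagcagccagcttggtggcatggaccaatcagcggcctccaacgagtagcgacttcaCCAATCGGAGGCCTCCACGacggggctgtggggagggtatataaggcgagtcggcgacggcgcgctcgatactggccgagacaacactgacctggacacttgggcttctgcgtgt
Creld2: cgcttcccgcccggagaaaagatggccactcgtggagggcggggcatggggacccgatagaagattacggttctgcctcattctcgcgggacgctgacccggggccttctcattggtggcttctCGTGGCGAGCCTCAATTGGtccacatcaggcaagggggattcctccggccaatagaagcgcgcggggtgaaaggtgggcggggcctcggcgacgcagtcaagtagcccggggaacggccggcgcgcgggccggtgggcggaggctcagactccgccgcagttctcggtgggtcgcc
Derl3: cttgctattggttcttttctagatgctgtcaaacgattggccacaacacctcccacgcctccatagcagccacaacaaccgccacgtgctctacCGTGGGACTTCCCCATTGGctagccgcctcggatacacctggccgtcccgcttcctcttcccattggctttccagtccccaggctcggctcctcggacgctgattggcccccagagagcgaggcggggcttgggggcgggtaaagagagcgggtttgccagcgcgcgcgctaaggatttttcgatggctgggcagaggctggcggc
Syvn1: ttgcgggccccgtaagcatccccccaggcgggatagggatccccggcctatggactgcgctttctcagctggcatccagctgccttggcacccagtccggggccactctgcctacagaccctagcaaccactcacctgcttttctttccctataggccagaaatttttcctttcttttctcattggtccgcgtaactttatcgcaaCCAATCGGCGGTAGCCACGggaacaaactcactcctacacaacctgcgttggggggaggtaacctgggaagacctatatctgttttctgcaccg
Hsp90b1: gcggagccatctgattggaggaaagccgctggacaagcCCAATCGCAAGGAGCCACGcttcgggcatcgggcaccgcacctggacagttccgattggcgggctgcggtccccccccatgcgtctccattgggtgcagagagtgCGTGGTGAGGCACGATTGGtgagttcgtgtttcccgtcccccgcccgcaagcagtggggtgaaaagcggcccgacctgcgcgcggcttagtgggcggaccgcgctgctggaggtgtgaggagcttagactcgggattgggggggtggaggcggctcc

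Hspa5, which encodes the main ER chaperone BiP, was at 718 to 1413 FPKM, median 1000, in set 2 and 318 to 625, median 435, in set 4 (-1.23 ± 0.25, adjusted p = 0.00677). Sdf2l1, a cofactor of BiP, was at 60.7 to 95.8 FPKM, median 73.6, in set 2 and 17.7 to 35.9, median 26.1, in set 4 (-1.56 ± 0.25, adjusted p = 0.00127). Manf, a secreted ER protein induced by folding stress, was at 116 to 184, median 130.3, and 27.8 to 65, median 57.4 (-1.48 ± 0.24, adjusted p = 0.00115). The sets did not overlap for any of these 3 genes. Creld2, a further secreted ER protein, was at 149 to 271 FPKM, median 176, in set 2 and 39 to 116, median 67.8, in set 4 (-1.43 ± 0.29, adjusted p = 0.00674). Hsp90b1, which encodes the chaperone GRP94, was at 580.1 to 839, median 656, and 320.3 to 562, median 413 (-0.73, adjusted p = 0.0104), and its adjusted p was 0.0918 with median-of-ratios scaling. The disulfide isomerase gene Pdia4 (-1.11, adjusted p = 0.00136), the BiP cochaperone Dnajb9 (-1.25, adjusted p = 0.0146) and the nucleotide exchange factor Hyou1 (-1.0, adjusted p = 0.0143) were lower too. With median-of-ratios scaling the adjusted p was 0.0513 for Dnajb9 and 0.0598 for Hyou1. The ninth chaperone gene, Dnajb11 (-0.53, adjusted p = 0.035), lost its call on removal of set 2 replicates 1, 2, 4, 5 or 6 or of set 4 replicates 7, 8, 10 or 12 (adjusted p up to 0.0829).

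Among genes of ER-associated degradation, Derl3 had the largest difference of the list. It was at 34.9 to 167 FPKM, median 43.4, in set 2 and 5.63 to 26.4, median 10.6, in set 4 (-2.14 ± 0.44, adjusted p = 0.00723), where the highest set 2 value was that of replicate 3, and without that library the difference was -1.81 (adjusted p = 0.0179). Sel1l, the adaptor of the ubiquitin ligase that clears misfolded proteins, was at 39.96 to 48.9 FPKM, median 42.5, in set 2 and 18.6 to 27.8, median 21.8, in set 4 (-0.95 ± 0.14, adjusted p = 0.000485). Syvn1, the ligase itself, was at 73.3 to 162, median 89.6, and 27 to 52.8, median 40.3 (-1.24 ± 0.28, adjusted p = 0.0118). Neither gene overlapped between the sets. Herpud1, a scaffold of the same complex, was lower as well (-1.16, adjusted p = 0.0107), whereas Edem1 (-0.45, adjusted p = 0.0284) and Derl2 (-0.31, adjusted p = 0.0473) lost their calls on removal of set 2 replicates 1, 2 or 4 or of set 4 replicates 7, 8 or 12 for Edem1 (adjusted p up to 0.0616) and of set 2 replicates 1, 2, 3, 4, 5 or 6 or of set 4 replicates 7, 8, 9, 10 or 12 for Derl2 (adjusted p up to 0.106).

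Among the sensors and regulators, Parp16, an ER membrane ADP-ribosyltransferase that modifies the sensors PERK and IRE1, was at 13.2 to 27.2 FPKM, median 19.7, in set 2 and 7.21 to 9.07, median 8.44, in set 4 (-1.07 ± 0.17, adjusted p = 0.00115). Creb3l2, a membrane-bound transcription factor cleaved under ER stress, was at 3.69 to 6.13 FPKM, median 4.4, in set 2 and 1.56 to 2.51, median 1.84, in set 4 (-0.93 ± 0.12, adjusted p = 0.000212). Eif2ak3, which encodes PERK, was at 3.32 to 5.6, median 4.32, and 1.9 to 2.51, median 2.33 (-0.68, adjusted p = 0.0168), and its adjusted p was 0.061 with median-of-ratios scaling. All 3 genes were without overlap between the sets. The mRNAs of the other sensors and regulators did not pass the threshold. They were Xbp1 (-0.25, adjusted p = 0.375), Atf6 (-0.07, adjusted p = 0.858) and Ern1, which encodes IRE1α (-0.05, adjusted p = 0.94). The ATF4 integrated stress response is a branch downstream of PERK. Of its 19 tested genes, 2 were lower (10.5%, against 5.51% of all tested genes) and none was higher. These were Ddit3 (-1.32, adjusted p = 0.0271), which encodes CHOP, and Sesn2 (-0.64, adjusted p = 0.0467), and neither was called with median-of-ratios scaling or without set 2 replicate 3.

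**Figure D2:**
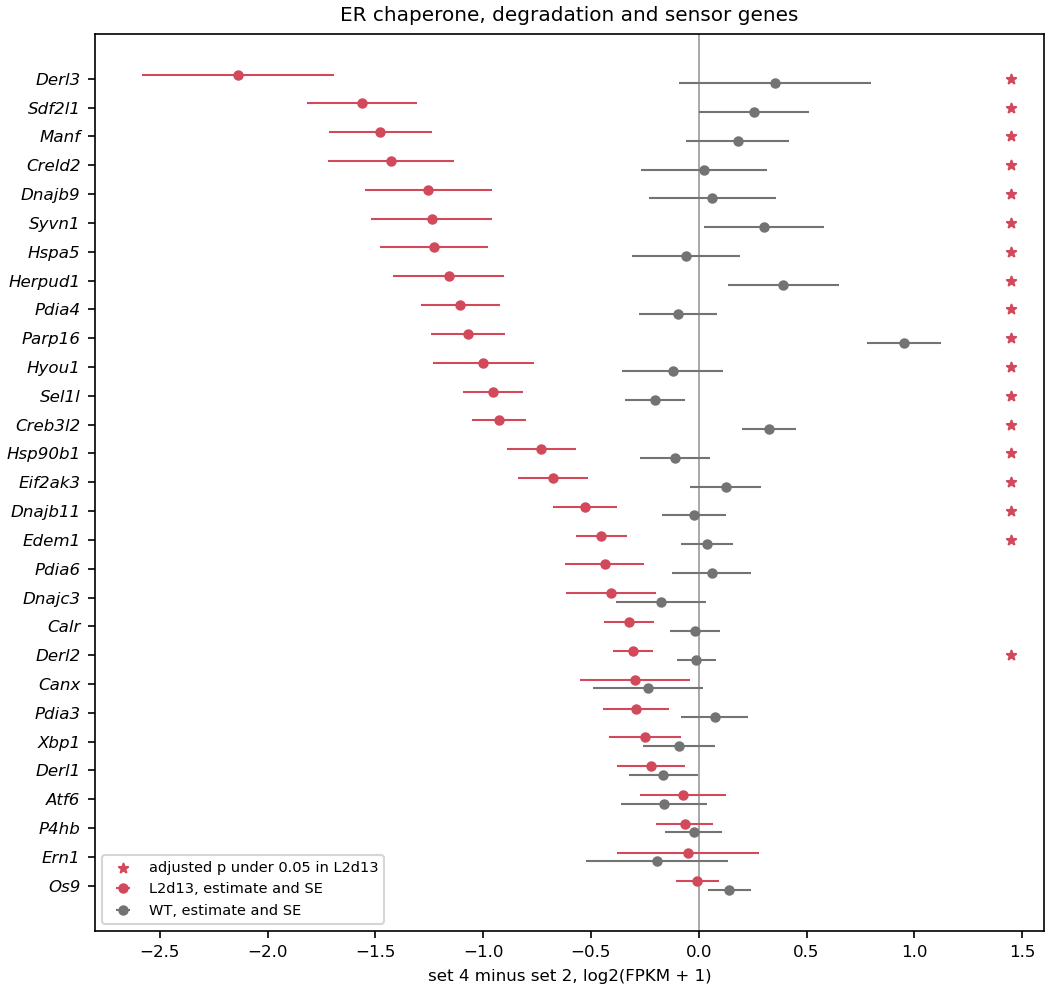
Set 4 minus set 2 on the log2(FPKM + 1) scale for the 29 tested ER genes, as estimate ± SE, in L2d13 (red) and WT (grey). Stars mark an adjusted p under 0.05. All 29 red estimates are below 0, while 15 of 29 grey estimates are.

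In WT livers the same ER list had a median set difference of -0.01, with 15 of 29 estimates negative. Parp16 moved the other way there. It was at 6.61 to 13.9 FPKM, median 10.9, in WT set 2 and 14.9 to 24.4, median 21, in WT set 4 (0.95 ± 0.17, adjusted p = 0.0128). The difference of the set effects (L2d13 minus WT) was negative for 27 of the 29 genes, median -0.62, but was called for only 4. It was -2.03 ± 0.24, adjusted p = 0.000142 for Parp16, the smallest p-value of that contrast. It was -1.25 ± 0.18, adjusted p = 0.00113 for Creb3l2, -1.81 ± 0.36, adjusted p = 0.0368 for Sdf2l1 and -1.66 ± 0.34, adjusted p = 0.0368 for Manf. The calls for Parp16 and Creb3l2 held on removal of any single library of the 24. That for Sdf2l1 was lost on removal of L2d13 set 2 replicates 1, 4, 5 or 6, of L2d13 set 4 replicates 7, 8 or 12, of WT set 2 replicates 1, 3 or 5 or of WT set 4 replicates 7, 9, 10 or 11 (adjusted p up to 0.0809), and that for Manf on removal of L2d13 set 2 replicates 1, 2, 4, 5 or 6, of L2d13 set 4 replicates 7, 8 or 12, of WT set 2 replicates 1, 3, 5 or 6 or of WT set 4 replicates 7, 9, 10 or 11 (adjusted p up to 0.0911). The difference for Manf also missed the threshold with median-of-ratios scaling, at an adjusted p of 0.0893. In WT, Sdf2l1 was at 11.9 to 40.9 FPKM in set 2 and 17.05 to 45.7 in set 4, and Manf at 27.8 to 66.5 and 31 to 79.8. For both genes these WT ranges overlapped that of L2d13 set 4 and lay below that of L2d13 set 2. Creb3l2 was at 1.74 to 2.86 FPKM in WT set 2 and 2.26 to 4.65 in WT set 4, and the latter range overlapped both L2d13 sets.

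The set differences of the clock genes in WT livers were in the opposite direction for Nr1d1 (-0.98 ± 0.36, adjusted p = 0.425) and Nr1d2 (-0.50 ± 0.19, adjusted p = 0.475) and did not pass the threshold. WT set 2 was uneven, with Nr1d1 at 12.4 and 22.8 FPKM in replicates 3 and 5 and at 2.47 to 4.72 in its other 4 libraries. The difference of the set effects was 3.11 ± 0.51, adjusted p = 0.00541 for Nr1d1, 1.56 ± 0.27, adjusted p = 0.00982 for Nr1d2, -1.83 ± 0.34, adjusted p = 0.0212 for Nfil3 and -0.99 ± 0.20, adjusted p = 0.0368 for Cry1. For Dbp it was 2.87 ± 0.62 and missed the threshold (adjusted p = 0.0603). The calls for Nr1d1 and Nr1d2 held on removal of any single library, but both were lost (adjusted p = 0.0627 and 0.053) when L2d13 set 2 replicate 3, WT set 2 replicate 6 and WT set 4 replicates 9 to 12 were left out together, as was that for Cry1 (adjusted p = 0.0669). That for Nfil3 was lost on removal of L2d13 set 4 replicate 8 or of WT set 2 replicate 5 (adjusted p up to 0.054), and that for Cry1 on removal of L2d13 set 2 replicates 1, 2, 4, 5 or 6, of L2d13 set 4 replicates 7, 8, 9 or 12, of WT set 2 replicates 3 or 5 or of WT set 4 replicates 7, 8, 9, 10 or 12 (adjusted p up to 0.0889).

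Over all tested genes, 20 differed between the WT sets (0.190%) and 16 differed in their set effect between the genotypes (0.152%), of which 13 had the lower set effect in L2d13 and 3 the higher. The unadjusted p was under 0.05 for 852 and 747 genes. Of the 638 genes called in L2d13, 512 (80.3%) had a WT set difference of the same sign, against 65.8% of all tested genes. Across genes, which are not independent replicates, the set differences of the genotypes, which share no library, had a Pearson r of 0.342. In both genotypes 6 genes were called. Serpine2, Nat8, Cyp3a11, Ces2a and Ifit2 had the same direction and Parp16 the opposite. Septin11, a cytoskeletal GTPase named here after its values were seen, had the smallest p in the L2d13 comparison. It was at 4.18 to 6.01 FPKM, median 4.83, in set 2 and 1.87 to 3, median 2, in set 4 (-0.93 ± 0.11, adjusted p = 7.06e-05), and its difference from the WT set effect was -1.0 ± 0.15, adjusted p = 0.00202. In WT it was at 1.83 to 2.61 FPKM in set 2 and 1.79 to 2.83 in set 4, below the range of L2d13 set 2. Slc13a3, a dicarboxylate transporter, was the reverse case. Its L2d13 sets were alike in range, 1.31 to 3.3, median 2.17, and 1.42 to 3.02 FPKM, median 2.08, while its WT set difference was -1.0 ± 0.14, adjusted p = 0.00062, and the difference of the set effects was 0.96 ± 0.20, adjusted p = 0.0417. That call was lost on removal of L2d13 set 2 replicates 1, 2, 4, 5 or 6, of L2d13 set 4 replicates 7, 8, 9 or 12, of WT set 2 replicates 1, 2, 3, 4 or 5 or of WT set 4 replicates 8, 9, 10, 11 or 12 (adjusted p up to 0.103). The remaining gene named for this contrast, the secreted protease inhibitor Wfdc2, had a difference of -1.27 ± 0.26, adjusted p = 0.0368, and its call was lost on removal of L2d13 set 2 replicates 1, 2, 3, 4 or 6, of L2d13 set 4 replicates 7, 8, 9, 10 or 12, of WT set 2 replicates 3, 4 or 5 or of WT set 4 replicates 7, 8, 9 or 12 (adjusted p up to 0.0889). The count of 16 genes fell to 8, 9 and 8 without L2d13 set 2 replicates 1, 2 and 4, to 7, 6 and 7 without L2d13 set 4 replicates 7, 8 and 12, to 9 and 6 without WT set 2 replicates 3 and 5, and to 8 and 9 without WT set 4 replicates 9 and 10. The count of 20 genes in WT was 82 without WT set 4 replicate 8 and 11, 11 and 9 without its replicates 7, 10 and 11. It was 8, 7, 10 and 12 without WT set 2 replicates 2, 3, 5 and 6.

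**Figure D3:**
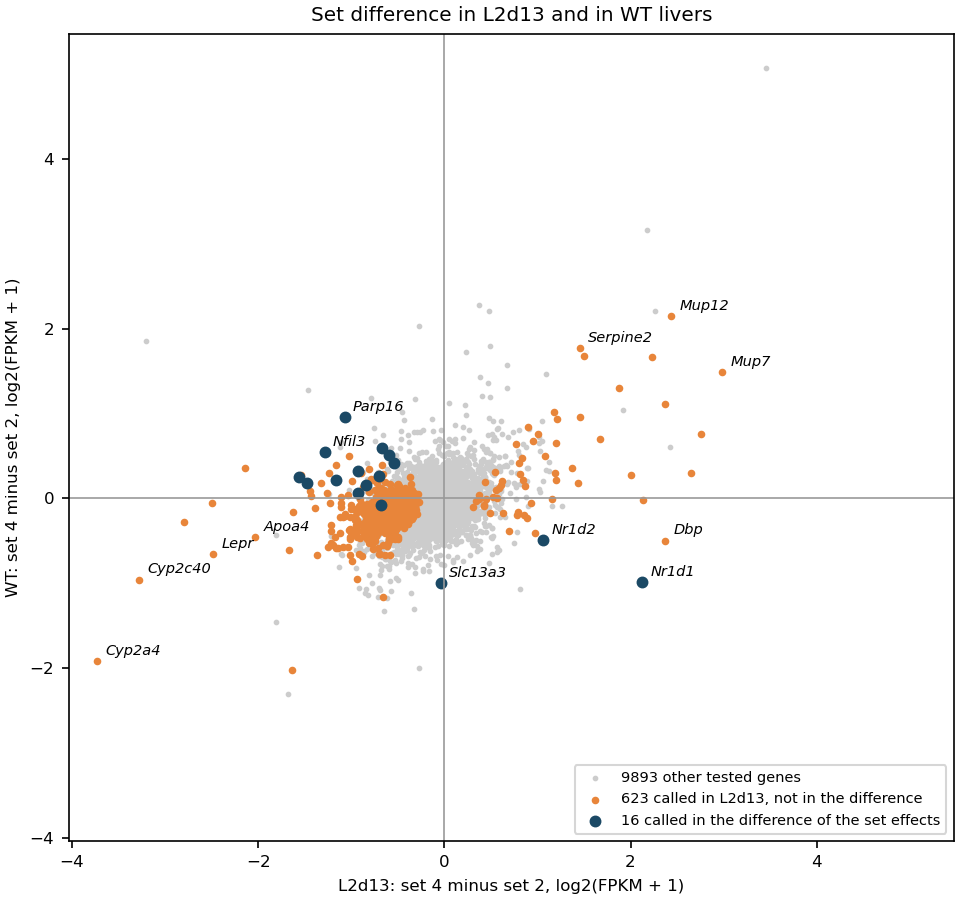
Set 4 minus set 2 on the log2(FPKM + 1) scale in L2d13 (horizontal) and WT (vertical) for 10532 tested genes. Coloured points are the genes called in L2d13 and those whose set effect differed between the genotypes; Nr1d1 lies at 2.12 in L2d13 and -0.98 in WT, and Parp16 at -1.07 and 0.95.

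Major urinary protein mRNAs were more abundant in set 4. Together they made up 5.31% to 10.6% of the FPKM sum in set 2 (mean 7.83% ± 2.03, SD, n = 6) and 10.1% to 23.2% in set 4 (17.5% ± 4.57, n = 6), with an overlap of the sets (exact permutation test, two-sided, p = 0.00433, adjusted p = 0.0182 over 21 library measures). Of 22 tested Mup genes, 9 were higher and none was lower, with a median log2 difference of 1.40. The count was 9 with median-of-ratios scaling and without set 2 replicate 3. The Mup family consists of nearly identical copies and its fragments may be assigned to the wrong one, so the value of any single one is uncertain and the sum is the firmer measure.

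Mup7 was at 212 to 3980 FPKM, median 2386, in set 2 and 6458 to 19085, median 13039, in set 4 (2.99 ± 0.62, adjusted p = 0.00723), without overlap. Mup20, which encodes the male pheromone darcin and is the most divergent of those named, was at 1627 to 5379, median 2772, and 4935 to 10019, median 7810 (1.37 ± 0.28, adjusted p = 0.00699), with an overlap. Mup14 (2.65, adjusted p = 0.00528), Mup15 (2.76, adjusted p = 0.0103), Mup12 (2.44, adjusted p = 0.00653), Mup18 (2.13, adjusted p = 0.0117), Mup11 (2.0, adjusted p = 0.00528), Mup13 (1.88, adjusted p = 0.0181) and Mup19 (1.43, adjusted p = 0.0103) were the other 7 higher members. Mup22 was the only tested Mup gene with a negative estimate (-1.68, adjusted p = 0.259). In WT the list had a median set difference of 0.54 and Mup20 one of 0.36 (adjusted p = 0.75). The difference between genotypes did not pass the threshold for Mup20 (adjusted p = 0.569).

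Cytochrome P450 genes moved in both directions, with 4 of 31 higher and 6 lower, against 0.551% and 5.51% of all tested genes. The lower ones included genes known to be higher in females. Cyp2c40 was at 12.2 to 85.1 FPKM, median 53.4, in set 2 and 1.25 to 7.88, median 2.44, in set 4 (-3.28 ± 0.46, adjusted p = 0.000297). Cyp2a4, a steroid hydroxylase, was at 3.26 to 57.5, median 13.4, and 0 to 0.44, median 0.07 (-3.73 ± 0.76, adjusted p = 0.00677), and Cyp2c69 at 5.13 to 67.1, median 25.8, and 0.96 to 5.82, median 1.48 (-2.79 ± 0.53, adjusted p = 0.00425). Cyp2c40 and Cyp2a4 did not overlap between the sets, whereas the highest set 4 value of Cyp2c69 (5.82 FPKM) was above the lowest of set 2. Cyp2c68 was also lower (-1.01, adjusted p = 0.00762). These genes have close paralogs, so their single values are uncertain as well. Cyp3a11, the main enzyme of drug oxidation in mouse liver, was named after its values were seen. It was lower in set 4 of L2d13 (-0.66 ± 0.14, adjusted p = 0.0102) and of WT (-1.16 ± 0.14, adjusted p = 0.000103), and its adjusted p in L2d13 was 0.0925 with median-of-ratios scaling. The 4 higher calls were not stable. They numbered 1 without set 2 replicate 3, and removal of any single L2d13 library other than set 2 replicates 5 and 6 lowered the count by more than 1.5 times.

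Of 21 genes listed as female-biased in liver, 10 passed the low-value filter (1 FPKM or above in 6 or more libraries). Of these 10, 4 were lower and none higher (median -0.58). A gene high in only 1 group of 6 libraries could pass this filter, so the share of 4 in 10 depends on it. Cyp2c40 and Cyp2a4, described above, are among the 4. Of 18 listed as male-biased, 3 were higher and none lower, median 0.47. Besides both P450 genes, the lower female-biased genes were Fmo2, a flavin monooxygenase (-1.21, adjusted p = 0.0123), and the transcription factor Tox (-0.63, adjusted p = 0.0197), whose call was lost on removal of set 4 replicate 7 (adjusted p = 0.0552) and with median-of-ratios scaling (adjusted p = 0.103). Among male-biased genes Susd4, a complement regulator, was at 1.44 to 4.97 FPKM, median 2.29, in set 2 and 4.19 to 9.39, median 7.1, in set 4 (1.18 ± 0.24, adjusted p = 0.00576). The other two, Cyp2d9 (0.37, adjusted p = 0.0445) and the oxysterol hydroxylase Cyp7b1 (1.46, adjusted p = 0.0469), were not called without set 2 replicate 3 (adjusted p = 0.0769 and 0.0892). In WT the female-biased list had a median set difference of -0.36, with 9 of 10 estimates negative and 1 gene called lower. The male-biased list had a WT median of 0.10 and no called gene. The difference of the set effects was called for no gene of either list. The Y-linked genes were detected in all 12 L2d13 libraries at like levels. Ddx3y was at 9.95 to 14.4, median 12.2, and 8.13 to 14.2 FPKM, median 13.6, and the set differences of Ddx3y, Eif2s3y, Kdm5d and Uty lay between -0.05 and 0.12. In the growth hormone and STAT5 axis 1 of 16 tested genes was higher and 2 were lower, against 0.551% and 5.51% of all tested genes. Cish, a STAT5-induced inhibitor of cytokine signalling, was at 0.35 to 4.55, median 0.75, and 1.91 to 8.17 FPKM, median 4.63 (1.20, adjusted p = 0.0409), a call lost on removal of set 2 replicates 1, 2, 5 or 6 or of set 4 replicates 7, 8, 10 or 11 (adjusted p up to 0.099). Igfbp1 was at 201 to 628 FPKM, median 378, in set 2 and 86.6 to 207, median 119, in set 4 (-1.54 ± 0.34, adjusted p = 0.0103), and Igfbp3 at 11.4 to 33.1, median 16.6, and 6.47 to 11.3, median 6.74 (-1.09 ± 0.22, adjusted p = 0.00569). Both encode carriers of insulin-like growth factors, and both calls held on removal of any single L2d13 library.

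Genes of the extracellular matrix and its crosslinking, the field in which lysyl oxidases act, were lower in set 4 in 18 of 36 tested cases and higher in none, with a median of -0.56. Estimates were negative for 33 of the 36 genes in L2d13 and also for 33 in WT, where the median was -0.23 and none was called. The difference of the set effects (L2d13 minus WT) was negative for 32 of 36, median -0.35, and was called for none. By role, 5 of 9 collagens, 8 of 15 glycoproteins and 5 of 12 modifying enzymes were lower in L2d13 set 4. Sparc, a collagen-binding glycoprotein, was at 17.6 to 45.8 FPKM, median 22.7, in set 2 and 8.85 to 12, median 10.04, in set 4 (-1.25 ± 0.17, adjusted p = 0.000276). The basement membrane collagen Col4a1 was at 5.05 to 12.6, median 6.97, and 2.61 to 4.9, median 3.31 (-0.90 ± 0.17, adjusted p = 0.00413). The fibril-associated collagen Col14a1 was at 4.91 to 9.1, median 5.92, and 2.19 to 4.74, median 3.26 (-0.83 ± 0.16, adjusted p = 0.00413). These 3 did not overlap between the sets. Lamb1, a laminin chain, was at low levels of 1.2 to 2.48, median 1.35, and 0.54 to 1.01, median 0.69 (-0.54, adjusted p = 0.00468). Estimates were close to 0 for Fn1 (0.07, adjusted p = 0.892) and Vtn (0.04, adjusted p = 0.866), matrix genes that hepatocytes make. The count of lower members was 11 with median-of-ratios scaling and 11 without set 2 replicate 3, and over the removal of single L2d13 libraries it ran from 9 to 20, with a change of more than 1.5 times for set 2 replicate 3 and set 4 replicates 7 and 10.

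Summed markers of several non-parenchymal cell types were lower as well, among them cells that express much of the matrix. The summed level of 16 markers of sinusoidal endothelium was 194 to 411 FPKM in set 2 and 76.6 to 176 in set 4, and 194 to 230.5 in set 2 without replicate 3. The sets did not overlap (exact permutation test, two-sided, p = 0.00216, the smallest that 6 against 6 allows, adjusted p = 0.0152). The sum of 12 stellate cell markers was 131 to 272 FPKM in set 2 (131 to 156 without replicate 3) and 73 to 111 in set 4, with the same p-values. The sum of 13 Kupffer cell markers was 198 to 443.5 FPKM and 94.1 to 335, with an overlap (exact permutation p = 0.0649, adjusted p = 0.136). By the same test, the low sums of T cell, B cell and monocyte and dendritic cell markers were lower in set 4 (adjusted p = 0.0379, 0.0398 and 0.039). These sums overlapped between the sets and were highest in set 2 replicate 3 (7.78, 23.2 and 11.3 FPKM). Without that library the exact p, not adjusted, was 0.0195, 0.0281 and 0.0216. The sums of cholangiocytes, NK cells, neutrophils, erythroid cells, adipocytes, exocrine pancreas, skeletal muscle and platelets did not pass the threshold. In bulk tissue, fewer cells of a type and less RNA per cell cannot be told apart, and the part of these cells in the lower matrix genes was not tested.

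Single endothelial markers were lower in 6 of 16 tested cases, with a median of -0.89 and 16 of 16 negative estimates. Lyve1, a hyaluronan receptor, was at 8.22 to 17.9 FPKM, median 11.7, in set 2 and 2.91 to 5.6, median 3.88, in set 4 (-1.37 ± 0.24, adjusted p = 0.00189). Ehd3 was at 17.1 to 33.2, median 19.1, and 5.98 to 12.2, median 10.6 (-1.02 ± 0.21, adjusted p = 0.00766) and the receptor gene Gpr182 at 12.2 to 22.9, median 14.1, and 4.58 to 8.91, median 7.24 (-1.02 ± 0.24, adjusted p = 0.0144). These 3 did not overlap between the sets and were called on removal of any single library. Oit3 (-1.16, adjusted p = 0.0253), Clec4g (-1.03, adjusted p = 0.0331) and Pecam1 (-0.74, adjusted p = 0.0476) were not called without set 2 replicate 3 (adjusted p = 0.0668, 0.0858 and 0.134), and the count of 6 became 3 without that library or without set 4 replicate 7. Of 11 tested stellate markers, 5 were lower, with a median of -0.52. Colec11 (-0.95 ± 0.15, adjusted p = 0.0011), the proteoglycan Dcn (-0.87 ± 0.18, adjusted p = 0.00714) and Lrat, which makes the retinyl esters stored in these cells (-0.72 ± 0.12, adjusted p = 0.00188), were called on removal of any single library. Reln (-0.69, adjusted p = 0.0304) and Hgf (-0.75, adjusted p = 0.0438) were not called without set 2 replicate 3 (adjusted p = 0.078 and 0.0879), and the count was also 3 under median-of-ratios scaling. None of 13 Kupffer markers was called, with a median of -0.69. The median of the stellate list was -0.32 without set 2 replicate 3. In WT the medians of the endothelial, stellate and Kupffer lists were -0.49, -0.17 and -1.06. WT set 4 was uneven in these markers. Its replicates 9 to 12 held 59.4 to 109.7 FPKM of summed Kupffer markers and 53.4 to 102.9 of endothelial markers, against 162 and 219.6 FPKM and 174 and 193 in its replicates 7 and 8. The Mup share of these 4 libraries was 23.8% to 33.6%, against 15.02% and 11.7%. Their part in the WT medians was not tested.

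**Figure D4:**
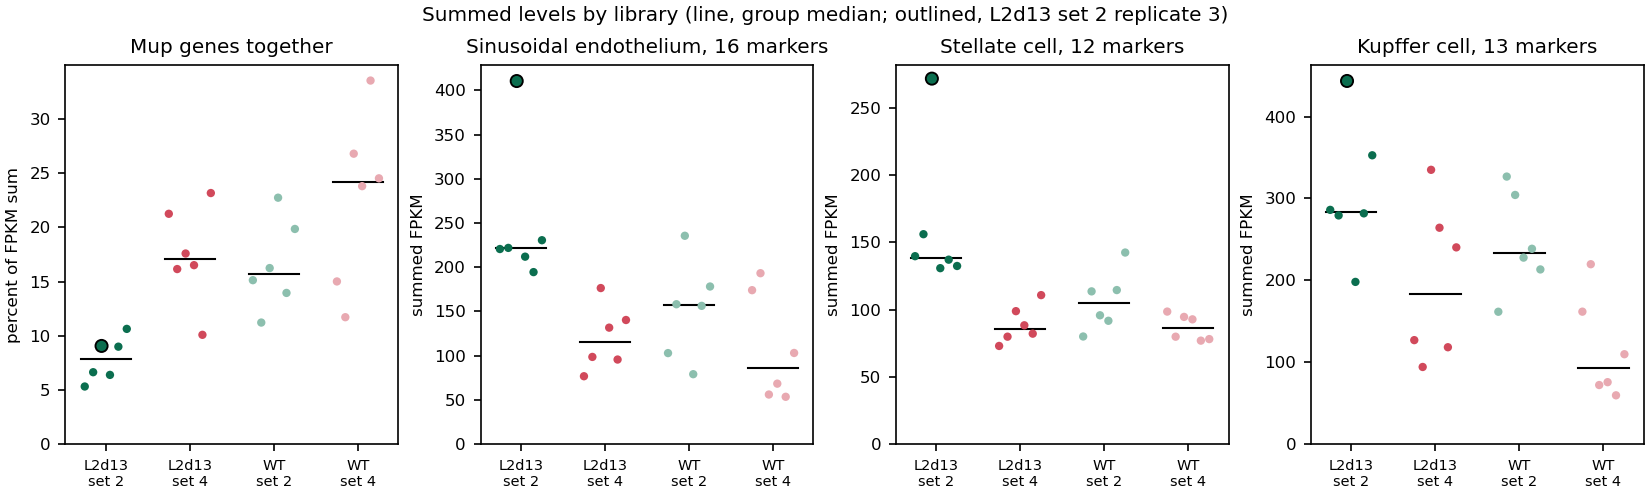
Share of Mup genes in the FPKM sum (percent) and summed FPKM of 16 sinusoidal endothelial, 12 stellate and 13 Kupffer cell markers in each of 24 libraries. Points are libraries, lines are group medians and the outlined point is L2d13 set 2 replicate 3. The L2d13 sets do not overlap for endothelial and stellate markers and overlap for the Mup share and the Kupffer markers.

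The overexpressed gene itself did not separate the sets. Most of its signal was listed under Gm21451, an annotated copy of Loxl2, and fragments may be split between the copies. Gm21451 was at 40.6 to 223 FPKM, median 172, in L2d13 set 2 and 106 to 266, median 207, in L2d13 set 4, and at 1.27 FPKM or less in all WT libraries (exact permutation test between the L2d13 sets, two-sided, p = 0.329). Loxl2 was at 1.22 to 2.26, median 1.66, and 0.83 to 1.7 FPKM, median 1.39 (exact p = 0.0866, adjusted p = 0.26 over 3 measures). Both ranges overlapped. The other 4 lysyl oxidase genes were too low to be tested. Lox was at 0.06 to 0.36 FPKM, median 0.16, in set 2 and 0.02 to 0.08, median 0.075, in set 4, Loxl1 at 0.3 to 1.43, median 0.47, and 0.14 to 0.4, median 0.32, and Loxl3 at 0.26 to 2.13, median 0.42, and 0.22 to 0.48, median 0.36, each with overlap. Loxl4 was at 0.78 to 2.69 FPKM, median 1.09, in set 2 and 0.22 to 0.7, median 0.495, in set 4, without overlap.

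Heat shock genes were lower in 4 of 19 tested cases (21.1%, against 5.51% of all tested genes), with a median of -0.42. With median-of-ratios scaling 1 of the 19 was lower, where 1.86% of all tested genes were. Hspa1b, the inducible cytosolic chaperone, was at 10.2 to 56.1 FPKM, median 17.6, in set 2 and 1.76 to 5.53, median 2.4, in set 4 (-2.49 ± 0.56, adjusted p = 0.0119), without overlap. The mitochondrial chaperonin subunit Hspe1 was at 215 to 279.9, median 237, and 126 to 205, median 162 (-0.58, adjusted p = 0.0132), but at an adjusted p of 0.129 with median-of-ratios scaling, under which Hspa1b was the 1 member called. Hsph1 (-1.12, adjusted p = 0.0322) and Chordc1 (-0.72, adjusted p = 0.0456) were lost on removal of set 2 replicates 1, 4 or 5 or of set 4 replicates 7, 10, 11 or 12 for Hsph1 (adjusted p up to 0.0861) and of set 2 replicates 1, 2, 3, 4 or 5 or of set 4 replicates 7, 10, 11 or 12 for Chordc1 (adjusted p up to 0.121).

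Genes of the interferon response were lower in 7 of 41 tested cases (17.1%, against 5.51% of all tested genes). Their median was -0.38, and in WT it was -0.48. Ifit2, an antiviral effector, was at 1.26 to 1.65 FPKM, median 1.46, in set 2 and 0.6 to 0.89, median 0.775, in set 4 (-0.49 ± 0.09, adjusted p = 0.00411), and in WT it was lower by a like amount (-0.48 ± 0.09, adjusted p = 0.0229). Ifi44 (-0.59, adjusted p = 0.00787), Trim30a (-0.68, adjusted p = 0.013) and the GTPase gene Gbp6 (-0.65, adjusted p = 0.0165) were lower too. The count was 3 with median-of-ratios scaling, 5 without set 2 replicate 3 and 4 to 9 over the removal of single L2d13 libraries, with a change of more than 1.5 times for set 4 replicate 12. Antigen presentation genes were lower in 4 of 16 cases (25%, against 5.51% of all tested genes), median -0.41. These were the peptide transporter subunits Tap1 (-0.51, adjusted p = 0.0176) and Tap2 (-0.42, adjusted p = 0.0181), Tapbp (-0.33, adjusted p = 0.0354) and the immunoproteasome subunit Psmb9 (-0.67, adjusted p = 0.0453). None of the 4 was called with median-of-ratios scaling (adjusted p = 0.115, 0.169, 0.318 and 0.219), and without set 2 replicate 3 there were 2. The count moved by more than 1.5 times on removal of set 2 replicates 1, 2, 3, 4 or 6 or of set 4 replicates 8, 10 or 12, within 0 to 8.

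Cholesterol synthesis enzymes were higher in 4 of 20 tested cases and lower in none, with a median of 0.30, and in WT the median was 0.44 with none of the 4 called. Msmo1 was at 10.2 to 19.7 FPKM, median 15.7, in set 2 and 28.6 to 47.4, median 37.3, in set 4 (1.21, adjusted p = 0.0349). Sqle, the squalene epoxidase, was at 1.61 to 5.15, median 3.48, and 5.7 to 12.1, median 9.3 (1.20, adjusted p = 0.0287). Hsd17b7 (0.84, adjusted p = 0.0272) and Nsdhl (0.77, adjusted p = 0.0474) were also higher, and none of the 4 overlapped between the sets. Without set 2 replicate 3 none was called (adjusted p = 0.0828, 0.076, 0.0742 and 0.1), and the count of 4 moved by more than 1.5 times on removal of set 2 replicates 1 or 6 or of set 4 replicates 7, 8, 10 or 12, within 0 to 4. Insig1, which retains the cholesterol sensor in the ER, had the same pattern (0.80, adjusted p = 0.0212, and 0.0579 without set 2 replicate 3).

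Several single genes outside these lists had large differences. The leptin receptor gene Lepr was at 8.96 to 53 FPKM, median 19.9, in set 2 and 1.28 to 8.82, median 2.14, in set 4 (-2.48 ± 0.51, adjusted p = 0.00723). Apoa4, an apolipoprotein of triglyceride-rich particles, was at 763 to 5320, median 2925, and 277 to 1228, median 649.9 (-2.03 ± 0.38, adjusted p = 0.00419), with an overlap of the sets. The ecto-5'-nucleotidase gene Nt5e was at 3.03 to 14.9 FPKM, median 8.04, in set 2 and 1.14 to 2.18, median 1.58, in set 4 (-1.67 ± 0.26, adjusted p = 0.00107). The sets of Lepr and Nt5e did not overlap. The glycogen targeting subunit Ppp1r3c was at 20.8 to 52.2, median 35.2, and 7.65 to 16.7, median 12.5 (-1.39 ± 0.23, adjusted p = 0.00126), and the chemokine gene Ccl21b at 1.85 to 9.7, median 3.62, and 0 to 1.64, median 1.11 (-1.44 ± 0.31, adjusted p = 0.0098), which has near-identical copies and is uncertain. The lipid-binding Fabp5 (-1.62, adjusted p = 0.0329) and the hepcidin gene Hamp2 (-1.64, adjusted p = 0.0303) were not called without set 2 replicate 3 (adjusted p = 0.0769 and 0.054) or with median-of-ratios scaling (adjusted p = 0.0733 and 0.0728).

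Among the genes that were higher, the protease inhibitor Serpine2 was at 0.64 to 1.71 FPKM, median 1.07, in set 2 and 3.05 to 7.99, median 4.11, in set 4 (1.46 ± 0.21, adjusted p = 0.000433). In WT it differed by a like amount (1.77 ± 0.21, adjusted p = 0.000103). The acetyltransferase gene Nat8 was at 0.68 to 6.2, median 1.95, and 4.11 to 9.05 FPKM, median 8.36 (1.5 ± 0.32, adjusted p = 0.00822), and in WT the difference was 1.68 ± 0.32, adjusted p = 0.0229. The ferritin receptor Scara5 was at 0.35 to 3.04 FPKM, median 0.985, in set 2 and 2.14 to 13.6, median 6.43, in set 4 (1.67 ± 0.39, adjusted p = 0.0136). Serpine2 did not overlap between the sets, while Nat8 and Scara5 did. Kap, a gene known from androgen-responsive kidney cells, was listed at 0 in all 6 libraries of set 2 and at 0.49 to 7.26 FPKM in set 4 (adjusted p = 0.00468), so no fold is given. The acute phase gene Saa1 was at 14.2 to 85 FPKM, median 29, in set 2 and 59.7 to 322, median 189, in set 4 (2.37, adjusted p = 0.0301), and it was not called without set 2 replicate 3 (adjusted p = 0.065). The related Saa4 was at 25.9 to 55, median 36, and 56.8 to 121, median 70.6 (1.0 ± 0.24, adjusted p = 0.0182), without overlap, and its call was lost on removal of set 4 replicate 12 (adjusted p = 0.0502).

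Many other pathway lists had 1 or 2 called members, which in lists of about 20 genes is close to the 5.51% lower over all tested genes, so the genes below are given as single genes. Car2 was the 1 lower gene among 6 tested carbonic anhydrases, enzymes that hydrate carbon dioxide, at 4.93 to 8.45 FPKM, median 6.58, in set 2 and 2.56 to 3.81, median 3.23, in set 4 (-0.85 ± 0.12, adjusted p = 0.000297), without overlap. Serpina3g, a protease inhibitor, was at 4.17 to 10.1 FPKM, median 4.67, and 2.14 to 2.99, median 2.38 (-0.84 ± 0.18, adjusted p = 0.00997), also without overlap. Plin3, a coat protein of lipid droplets, was at 16.7 to 29.1 FPKM, median 21.4, in set 2 and 13.2 to 17, median 14.4, in set 4 (-0.57 ± 0.13, adjusted p = 0.0118), with overlap, as the 1 lower gene of 19 in its list. Slc3a1, part of a transporter of cystine and dibasic amino acids, was at 3.07 to 5.78 FPKM, median 3.35, and 4.37 to 12.2, median 7.52 (0.87 ± 0.20, adjusted p = 0.0144), with overlap, and it was the 1 higher gene of 20 hepatic transporters. Znrf3, a membrane ubiquitin ligase that removes Wnt receptors, was at 1.13 to 1.22 FPKM, median 1.17, and 1.42 to 1.98, median 1.68 (0.31 ± 0.07, adjusted p = 0.0152), without overlap. These 5 calls held on removal of any single L2d13 library and with median-of-ratios scaling. That of Vnn1, a pantetheinase and target of PPARA (-0.94, adjusted p = 0.0179), held on such removal but not with that scaling (adjusted p = 0.0513).

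Calls of 16 further list members were lost without set 2 replicate 3, and 15 of these were also lost without at least 1 other L2d13 library. In lipid metabolism, the peroxisomal thiolase Acaa1b was lower (-1.0, adjusted p = 0.0251, and 0.0684 without that library), as was Apoc2, the activator of lipoprotein lipase (-0.90, adjusted p = 0.0466, and 0.118), whereas the peroxisomal reductase Pecr was higher (0.59, adjusted p = 0.0414, and 0.113). In amino acid and steroid metabolism, the serine dehydratase Sds was higher (0.82, adjusted p = 0.0315, and 0.0661) and its relative Sdsl lower (-0.48, adjusted p = 0.0494, and 0.0771), while Akr1c6, a hydroxysteroid dehydrogenase, was higher (0.78, adjusted p = 0.0431, and 0.0746). The pericentral Cyp2c29 was higher (0.97, adjusted p = 0.0422, and 0.106). Lower genes of signalling and transport were the kinase Sgk1 (-1.14, adjusted p = 0.0242, and 0.0541), the cyclin Ccnd2 (-0.66, adjusted p = 0.0392, and 0.0696), the manganese exporter Slc30a10 (-0.64, adjusted p = 0.0331, and 0.0856) and the tight junction protein Tjp3 (-0.59, adjusted p = 0.0396, and 0.107). Serpina3f (-0.75, adjusted p = 0.0222, and 0.0586) and the lysosomal hexosaminidase subunit Hexa (-0.51, adjusted p = 0.0351, and 0.0884) were lower as well. The other 3 were the ribosomal protein gene Rps21 (-0.72, adjusted p = 0.0335, and 0.0636), the proteasome assembly factor Psmg1 (-0.39, adjusted p = 0.0237, and 0.0584) and the proteasome gene Psmd9 (-0.51, adjusted p = 0.0432, and 0.104), all lower. Gsto1, the 1 lower gene of 21 glutathione transferases (-0.42, adjusted p = 0.0244), was lost on removal of set 4 replicates 8, 10 or 12 (adjusted p up to 0.0619). Angptl6, a hepatokine (-0.57, adjusted p = 0.0316), was lost on removal of set 2 replicate 1 or of set 4 replicates 7, 8, 10 or 12 (adjusted p up to 0.076).

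Lists of constitutive genes had few called members, near or below the 5.51% lower over all tested genes. Of 80 tested cytosolic ribosomal protein genes 2 were lower (median -0.34), of 78 nuclear-encoded respiratory chain genes none (median -0.24), and of 46 proteasome genes 3 (median -0.16). None of these was called with median-of-ratios scaling or without set 2 replicate 3. The medians were -0.16, -0.06 and 0.03 with that scaling, so the sign of the proteasome median depended on it, and -0.19, -0.17 and -0.14 without that library. Negative estimates numbered 79 of 80, 76 of 78 and 43 of 46, against 8237 of 10532 over all tested genes. In WT the negative estimates were 41, 18 and 44. Of 18 pericentral hepatocyte genes, 2 (Znrf3 and Cyp2c29) were higher and none lower in L2d13, median 0.13, and without set 2 replicate 3 there was 1, median 0.24. All 18 had negative estimates in WT (median -0.33). None of the 10 hepatocyte markers was called (median 0.05, and -0.07 without that library). The plot of lists sets the share of members called beside the medians of both genotypes.

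**Figure D5:**
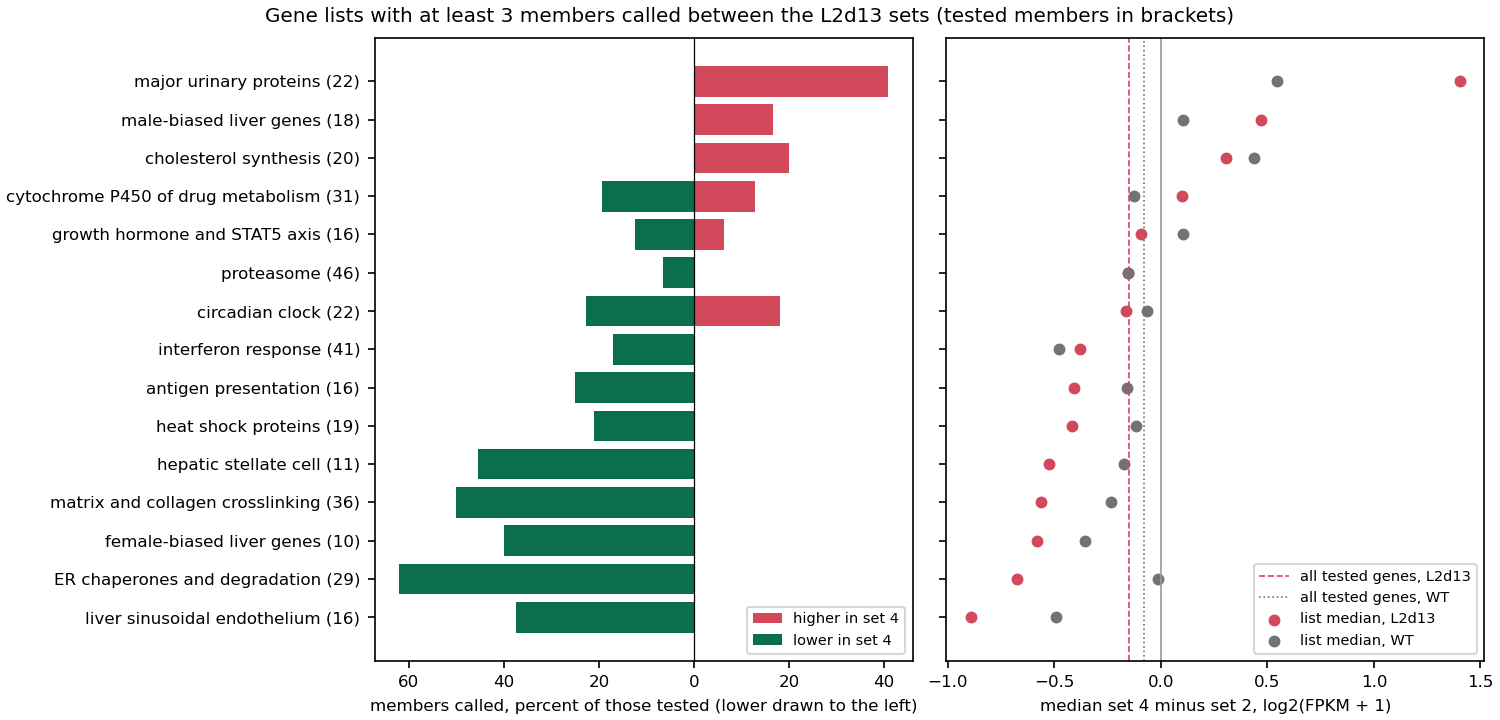
Percent of tested members called lower or higher in L2d13 set 4 (left) and median log2 set difference in L2d13 and WT (right) for the lists with at least 3 called members, with all tested genes for comparison. The ER list has 18 of 29 members lower, and the Mup list has the largest positive median, 1.40.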

How the data were processed

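Liver RNA of 24 libraries was sequenced, and the submitters' processing notes name HISAT, Bowtie2, RSEM and GRCm38.p5 without versions. The FPKM values were deposited by the authors for 18171 genes and used as deposited. FPKM keeps no totals of reads, so the absolute depth of a library is unknown, and the sources name no other normalization. The steps between low values gave the FPKM that 1 fragment is worth relative to the other libraries, which was 0.957 to 1.11. All 24 columns belonged to a sample. Symbols were found for 18040 gene identifiers in the RefSeq table of GRCm38.p6 and not for 131.

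The low-value filter required 6 or more libraries at 1 FPKM or above and passed 10532 genes. Version 3.58.1 of limma (R 4.3.3, statmod 1.5.0) then modelled log2(FPKM + 1) by the mean of each of the 4 groups, using all 24 libraries and a prior variance that depends on the level of the gene. Tests were two-sided, with Benjamini-Hochberg adjustment over all tested genes of a contrast and a threshold of 0.05. Fold changes on this scale understate the changes of low genes. The procedure was tested on simulated data with 100 genes changed by 1.5-fold and 100 by 2-fold. It called 53% and 88% of these, and 6 unchanged genes. The simulated noise was independent between genes and held no library that stands apart and no shift of abundant genes. The test therefore does not cover these features of the data. Single library measures were compared by the exact permutation test, with 924 arrangements of 6 against 6. Promoters and plots used Python 3.11.15, numpy 2.4.6, pandas 2.3.3 and matplotlib 3.10.9.

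The comparison, the 66 gene lists and the rule for names were chosen with earlier results of these data known. The rule names the 15 largest rises and the 15 largest falls among called genes whose higher group averaged 1 FPKM or more, passing over predicted genes. It also names up to 6 differences of the set effects per sign, up to 4 called members per list (2 in lists with a small share called), Loxl2, Gm21451, the other lysyl oxidases and the Y-linked genes. Further clock, ER, endothelial, stellate and Mup genes, Cyp3a11 and Septin11 were named after their values were seen, as were members given only to state that they did not pass. Xist was not analysed here, and some genes picked by the rule are counted but not reported by name here. Other scalings, filters, pseudocounts and weights, the replicate block and the removal of each library were tried. The removal of set 2 replicate 3 together with median-of-ratios scaling was added after seeing the data. Replicate numbers of L2d13 run from 1 to 6 in set 2 and from 7 to 12 in set 4.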

Additional observations from a re-analysis of the deposited data

Results flagged for a closer look

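In 270 groups of 6 libraries that were examined (135 values in each L2d13 set), 25 held a library whose gap to its nearest neighbour took up more of the group's range than Dixon's 95% critical value allows. That is 9.26% of groups, where chance gives about 1 in 20. In 17 of the 25 that library was set 2 replicate 3. It was far above the rest of set 2 in Derl3 (167.3 FPKM), Nfil3 (61.3), Trim30a (3.99), Serpina3g (10.1), Angptl6 (13.4), Lamb1 (2.48), Ccnd2 (4.72) and Rps21 (472.9). It was also far above in the cell type markers Ehd3 (33.2 FPKM), Gpr182 (22.9), Oit3 (25.1), Clec4g (81.3), Pecam1 (14.2) and Colec11 (57.2). The same held for its number of genes at an FPKM of 1 or more (11371), its summed endothelial markers (410.5 FPKM) and its summed stellate markers (272).

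Other libraries stood far from their group in single genes. In set 2 these were replicate 5 for Creld2 (271.2 FPKM, high) and replicate 1 for Slc3a1 (5.78, high). In set 4 they were replicate 11 for Mup15 (1970 FPKM, low), replicate 9 for Nat8 (4.11, low) and Septin11 (3.0, high), replicate 8 for Parp16 (7.21, low), replicate 12 for Apoc2 (108.7, low) and replicate 10 for Trim30a (1.47, high).

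The set effect differed between L2d13 and WT, by limma's test of the difference itself, for 11 of the named genes. On the log2 scale the set effect in L2d13 minus that in WT was 3.11 for Nr1d1, 1.56 for Nr1d2 and 0.96 for Slc13a3. It was -2.03 for Parp16, -1.83 for Nfil3, -1.81 for Sdf2l1, -1.66 for Manf, -1.27 for Wfdc2, -1.25 for Creb3l2, -1.0 for Septin11 and -0.99 for Cry1.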

How the results depend on the processing

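Of 122 named genes called in L2d13, 52 stayed called in every alternative run, 73 on removal of any single L2d13 library, 73 with all 3 other scalings and 84 without set 2 replicate 3, and none changed sign. Besides the values given above, genes higher and lower in set 4 numbered 36 and 312 with a minimum of 5 FPKM in 6 libraries, 215 and 2047 with array weights, 106 and 897 without the 6 libraries in which 1 fragment was worth the most FPKM (L2d13 set 2 replicate 3, WT set 2 replicate 6 and WT set 4 replicates 9 to 12), and 71 and 118 without set 2 replicate 3 under median-of-ratios scaling. Under median-of-ratios scaling they numbered 105 and 196, with quantile normalization 136 and 209, and 179 were lower at an equal sum without the 50 top genes. Removal of single libraries gave 31 to 59 higher and 263 to 641 lower genes.

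Genes whose set effect differed between genotypes numbered 9 at an equal sum without the 50 top genes, 6 with no filter, 9 with a minimum of 5 FPKM, 341 with array weights, 68 without the 6 libraries, which leaves 2 libraries in WT set 4, and 6 to 19 on removal of single libraries. In WT the counts were 13, 1468 and 1 with the minimum of 5 FPKM, with array weights and without the 6 libraries, 7 in a fit of the 12 WT libraries alone, and 7 to 82 on removal of single libraries. A replicate block was possible only for the difference of the set effects and gave 9 genes. Deviations of same-numbered libraries correlated at -0.604 to 0.26, and 1 library was closest to its own number. This check showed no pairing by number but could not exclude it.

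On removal of single libraries the set difference ran from 8.49 to 11.1 percentage points for the Mup share, 6.39 to 7.86 for the share of the 50 top genes, -531.9 to -276.9 for the number of genes at 1 FPKM, -139.8 to -96.0 FPKM for endothelial, -78.7 to -50.5 for stellate and -138.2 to -83.1 for Kupffer markers (exact permutation p 0.0281 to 0.132 for the last). It ran from -0.27 to -0.15 for Loxl2 and from 0.16 to 0.64 for Gm21451 on the log2 scale. Since read totals are unknown, how depth limits the low genes is unknown. The causes of these changes were not tested.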
